A study of Mus musculus with 10 samples.

Results

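The genes described here carry Mrpl (large subunit) or Mrps (small subunit) symbols, which are given to proteins of the mitochondrial ribosome. They were taken by symbol from the protein-coding genes of the mouse RefSeq table (GRCm38.p6), and 78 of 21631 genes on autosomes and X matched, 49 Mrpl and 29 Mrps genes. The symbol rule uses no measured value, but it was chosen with earlier results of these data known. Each gene was scored in each library for a called ATAC-seq peak within 1000 bp of either gene end, a gene-end peak. ATAC-seq uses a transposase to cut and tag open DNA, so a peak marks a stretch of accessible chromatin.

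Mitochondria keep a ribosome of their own, which translates the few messages encoded by mitochondrial DNA, all of them for core subunits of oxidative phosphorylation. Its ribosomal RNAs also come from mitochondrial DNA, but all its proteins are encoded in the nucleus, made in the cytosol and imported. Supply of these proteins is therefore tied to nuclear promoters, and in many cell types MYC and nuclear respiratory factors are known to act on nuclear genes for mitochondrial proteins. Liver is rich in mitochondria.

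Each library was made from a frozen liver tumour of the FVB strain, collected at the time of death. The tumours arose after doxycycline was taken out of the drinking water, which switches on MYC. All groups carried LAP-tta, the doxycycline-repressed activator expressed from a liver promoter, and TRE-MYC, the MYC transgene it drives. Arid1a encodes a DNA-contacting subunit of the SWI/SNF (BAF) chromatin remodeller, and the series asks what its loss does in liver cancer. Homo tumours (3 libraries, about 100 days) were Arid1afl/fl with Alb-cre, on that LAP-tta and TRE-MYC background. Het tumours (3 libraries, about 70 days) were Arid1afl/+ with Alb-cre on it. WT tumours (4 libraries, about 55 days) were Arid1aflfl on it, with both alleles floxed and no Cre. Alb-cre acts from the albumin promoter, so cells of other types in a Homo or Het tumour can keep the floxed Arid1a intact. Age and Cre differ with genotype, and their effects cannot be told apart from it. The labels do not say that the replicates of a group came from separate mice, so a p-value reflects only how far these libraries spread, which may be technical.

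The lists differed widely in length before any gene was considered. They held 1748 to 9587 merged regions in Homo, 2583 to 5796 in Het and 6731 to 9526 in WT tumours. The depth recovered from the lists, as background tags at a position, was 0.464 to 1.608 in Homo, 0.655 to 0.738 in Het and 0.985 to 1.745 in WT tumours. Homo 3 stood apart from the other Homo libraries, with the longest list of all 10. A peak at or near Arid1a was present in 2 of 3 Homo, 2 of 3 Het and 4 of 4 WT libraries. These peaks were not all at a single place. That of Homo 1 lay beyond the gene end (chr4:133757130-133757427), and that of Homo 3 lay inside the gene (chr4:133754196-133754567). The Het and WT peaks overlapped that of Homo 3. Where the peaks lie relative to the floxed stretch is not given, so they say nothing about the deletion. Of 11 hepatocyte markers 8 (72.7%) had a gene-end peak in at least 1 library, against 42.6% of all genes. Their median was 2 libraries, and Hnf4a, Foxa2 and Serpina1a had no gene-end peak. The markers' mean share was 24.2% in Homo, 15.2% in Het and 38.6% in WT tumours, against 19.9%, 18.2% and 32.6% of all genes. None of the endothelial, stellate cell or lymphocyte markers had a gene-end peak. Spi1 (macrophage) had one in 1 Homo library, and a cholangiocyte marker, Epcam, had one in WT libraries only. Fewer open cells and less open chromatin per cell cannot be told apart in bulk tissue.

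The promoters on which the comparisons below turn are those of Mrpl17 and Mrpl9, open in all 10 libraries, and of the members with a peak in all WT and in no Het library. Each line gives the bases just before the annotated start, 5′ to 3′ on the gene's strand, from RefSeq's GRCm38.p6 promoter table. Up to 150 bases are shown, fewer where a gene facing the other way starts nearer. Capitals mark exact matches, on either strand, to CACGTG (E-box, bound by MYC and MAX), CCGGAAG (ETS factors, including GABPA), AAGATGG (YY1) or GCGCATGCG (NRF1, nuclear respiratory factor 1). Mrps35, which belongs with the second set, is not in the promoter table.
Mrpl17 (chr7:105811088-105811237, minus strand): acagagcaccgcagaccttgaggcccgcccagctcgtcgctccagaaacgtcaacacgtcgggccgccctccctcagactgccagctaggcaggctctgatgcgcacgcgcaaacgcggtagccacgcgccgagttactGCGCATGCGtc
Mrpl9 (chr3:94443186-94443335, plus strand): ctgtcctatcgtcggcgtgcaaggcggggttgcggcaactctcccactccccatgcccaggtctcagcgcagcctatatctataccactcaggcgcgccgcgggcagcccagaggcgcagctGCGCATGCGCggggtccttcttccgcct
Mrpl1 (chr5:96209965-96210114, plus strand): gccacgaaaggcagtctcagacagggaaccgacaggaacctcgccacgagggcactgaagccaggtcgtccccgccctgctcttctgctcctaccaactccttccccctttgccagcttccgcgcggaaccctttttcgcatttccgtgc
Mrpl20 (chr4:155802728-155802877, plus strand): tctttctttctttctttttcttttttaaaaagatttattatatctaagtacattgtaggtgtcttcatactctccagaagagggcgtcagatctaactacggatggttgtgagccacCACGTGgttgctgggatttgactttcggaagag
Mrpl30 (chr1:37890412-37890476, plus strand): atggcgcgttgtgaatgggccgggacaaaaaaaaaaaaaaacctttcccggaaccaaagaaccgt
Mrpl43 (chr19:45006443-45006557, minus strand): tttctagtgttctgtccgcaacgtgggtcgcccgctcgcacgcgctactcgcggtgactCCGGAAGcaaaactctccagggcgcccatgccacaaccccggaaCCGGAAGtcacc
Mrpl51 (chr6:125192050-125192199, plus strand): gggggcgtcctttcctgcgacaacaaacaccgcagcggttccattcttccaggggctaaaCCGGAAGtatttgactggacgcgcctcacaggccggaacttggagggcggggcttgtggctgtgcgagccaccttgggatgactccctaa
Mrps15 (chr4:126046778-126046927, plus strand): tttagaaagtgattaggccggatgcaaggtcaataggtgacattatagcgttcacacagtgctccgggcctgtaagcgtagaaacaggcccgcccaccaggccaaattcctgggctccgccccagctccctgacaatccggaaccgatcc
Mrps22 (chr9:98601680-98601829, minus strand): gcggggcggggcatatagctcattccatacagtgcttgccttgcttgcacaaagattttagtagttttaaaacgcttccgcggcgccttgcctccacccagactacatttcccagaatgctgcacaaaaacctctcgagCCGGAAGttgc
Mrps36 (chr13:100744660-100744809, minus strand): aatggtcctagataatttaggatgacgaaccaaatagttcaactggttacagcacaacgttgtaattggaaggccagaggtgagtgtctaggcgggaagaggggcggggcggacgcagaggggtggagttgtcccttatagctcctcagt

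An NRF1 match ended close to the start in the promoters of both members with a gene-end peak in every library. Its first base lay 11 bases before the start in Mrpl17 and 28 bases before it in Mrpl9. In Mrpl9 a second match overlaps it on the other strand. In the 300 bases around the start, NRF1 letters were in 7 of 69 members (10.1%) and 5.07% of genes with a peak. The Mrpl17 match lies outside the peaks of Homo 2 (chr7:105810856-105811055) and Het 3 (chr7:105811122-105811321). Of the 8 promoters in the second set, 3 held an ETS match (Mrpl43, Mrpl51 and Mrps22), 1 an E-box (Mrpl20) and 4 none of the 4 motifs in the stretch shown. In the 300 bases ETS letters were likewise in 3 of these 8, against 26 of 69 members (37.7%), a similar share. The E-box was in 1 of the 8, against 5 of 69 members (7.25%). The E-box of Mrpl20 lies outside its peaks, whose summits were 677 to 739 bp after the start. The ETS match of Mrpl51 lies inside its Homo 3 peak (chr6:125191565-125192315). It lies outside the Mrpl51 peaks of WT 2 (chr6:125191561-125191866) and WT 3 (chr6:125191644-125191896). In WT 1 and WT 4, with 2 regions each, it lies outside the ranked one (chr6:125191448-125191933 and chr6:125191500-125191742). These matches are descriptions of letters, not of binding.

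Most mitochondrial ribosomal protein genes were open at a gene end somewhere in the series. A gene-end peak was called in at least 1 library for 68 of 78 members (87.2%), against 9218 of 21631 genes (42.6%). It was called in 5 or more libraries for 45 members (57.7%), against 29.1% of all genes. Among genes with any peak the median was 6 libraries both for the members and for all genes. The members thus differed from the genome mainly in how many had a peak at all. No test was made of this difference, since genes are not replicates.

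**Figure D1:**
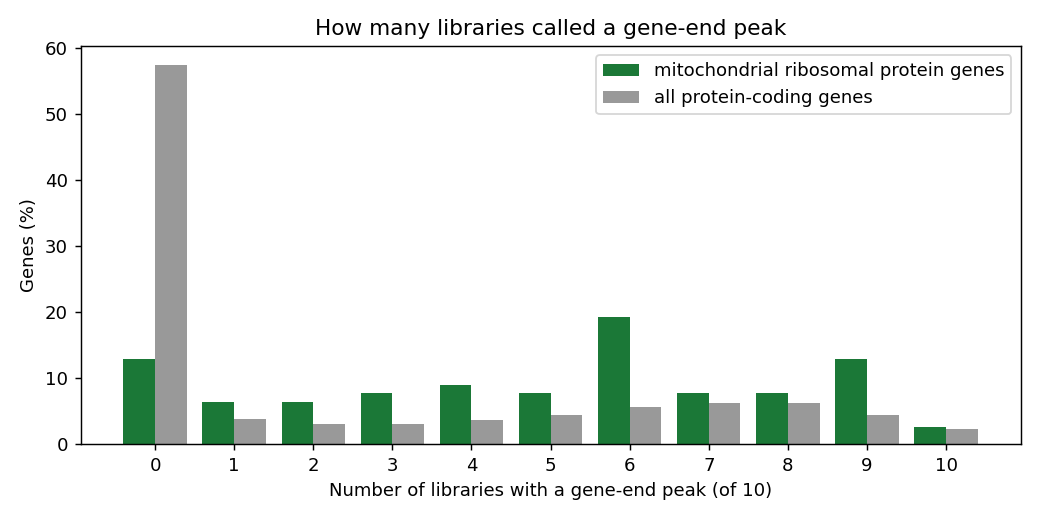
Percent of mitochondrial ribosomal protein genes (green) and of all protein-coding genes (grey), vertical axis, by the number of libraries with a gene-end peak, horizontal axis. All 21631 genes put 57.4% in the bar at 0, where the 78 members put 12.8%, and the members' highest bar is at 6 libraries.

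With the subunit taken from the gene symbol, both subunits were covered to a similar extent. A peak in at least 1 library was found for 42 of 49 large-subunit genes, with a median of 6 libraries, and for 26 of 29 small-subunit genes, with a median of 5. The mean share of large-subunit genes with a peak was 41.5% ± 30.1 in Homo, 31.3% ± 15.0 in Het and 67.9% ± 7.70 in WT tumours (SD, n = 3, 3 and 4). For small-subunit genes it was 42.5% ± 35.2, 29.9% ± 17.0 and 67.2% ± 3.45 in the same groups. The subunit means of each group differed by less than the SDs of that group. In single libraries the subunits could lie farther apart. WT 1 had a peak for 77.6% of large-subunit and 69.0% of small-subunit genes, and Homo 3 for 75.5% and 82.8%.

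By library, 23, 14 and 61 members had a gene-end peak in the Homo tumours, 33, 29 and 10 in the Het tumours and 58, 52, 47 and 54 in the WT tumours (replicates 1 to 3, or 1 to 4). The highest Het library lay below the lowest WT library, while the Homo libraries lay on both sides of the WT range. As a share of 78, the means were 41.9% ± 32.0 in Homo, 30.8% ± 15.8 in Het and 67.6% ± 5.86 in WT tumours. Over all genes they were 19.9% ± 15.5, 18.2% ± 6.99 and 32.6% ± 3.33 in those groups, with the same order and the same overlaps. The members' share was 1.85, 2.64 and 2.11 times that of all genes in Homo, 1.75, 1.87 and 1.22 times in Het and 2.08, 2.03, 2.15 and 2.04 times in WT tumours. Across the 4 WT libraries this ratio hardly varied, and the libraries farthest from it were the shortest lists, Homo 2 above and Het 3 below.

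**Figure D2:**
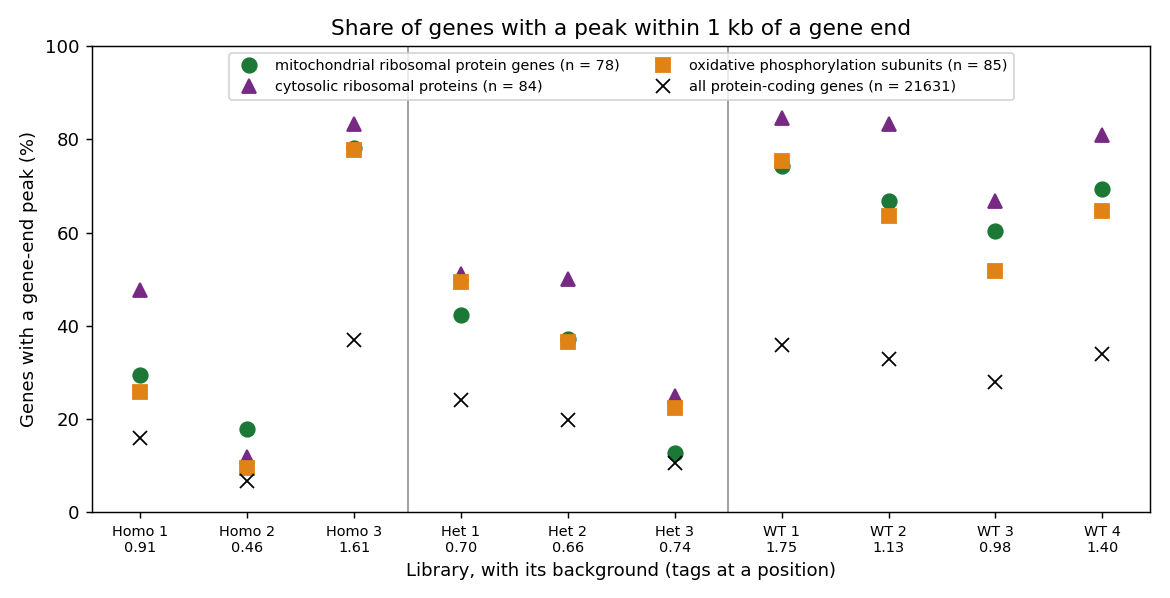
Percent of genes with a gene-end peak (vertical axis) in each library, Homo to the left, Het in the middle, WT to the right, with the recovered background in tags under each name. Each point is 1 library: mitochondrial ribosomal protein genes (circles) lie above all protein-coding genes (crosses) in all 10 libraries, by the least in Het 3, 12.8% against 10.5%.

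The counts were recomputed with depth or list length made equal. In the deposited lists, Homo 3 and the WT libraries had the highest depth (0.985 to 1.745) and the most members (47 to 61). Among the others, Het 3 was the deepest Het library (0.738) with the fewest members. Homo 1 (0.914) had fewer than Het 1 (0.696) or Het 2 (0.655). What part depth has in the counts beyond the values given here was not tested. When every library was scaled down to the depth of Homo 2, the counts were 18, 14 and 40 in Homo, 33, 29 and 10 in Het and 34, 46, 39 and 36 in WT tumours. The Het and WT ranges then came within 1 gene of each other. The shares of all genes were 12.5%, 6.79% and 26.1% in Homo, 23.7%, 19.5% and 9.80% in Het and 20.8%, 27.2%, 23.4% and 22.5% in WT tumours, where Het 1 lay within the WT range. When each list was cut to its 1748 strongest regions, the counts were 6, 14 and 10 in Homo, 13, 13 and 7 in Het and 10, 14, 10 and 12 in WT tumours, and the ranges overlapped. The means were then 10 ± 4, 11 ± 3.46 and 11.5 ± 1.91, and between 6.79% and 7.90% of all genes had a peak in each library. The median rank percentile of their regions, from the authors' −log10 p with 100 the strongest, was 36.3, 44.3 and 43.6 in Homo, 54.6, 53.5 and 46.2 in Het and 50.5, 61.6, 40.2 and 48.2 in WT tumours. All Homo values lay below all Het values, and the WT range overlapped both. Over all gene-end regions these medians were 47.0, 44.2 and 54.1 in Homo, 49.1, 48.1 and 46.4 in Het and 53.6, 51.3, 49.9 and 51.3 in WT tumours.

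The short lists of Homo 2 and Het 3 overlapped in part. Homo 2 called 14 (among them Mrps7, Mrps33, Mrpl40 and Mrpl48) and Het 3 called 10 (among them Mrpl36, Mrpl37, Mrpl39 and Mrps26). They shared 4, Mrpl9, Mrpl17, Mrpl47 and Mrps14, which is 28.6% of the Homo 2 members and 40% of the Het 3 members. Over all genes they shared 734, which is 49.97% of the genes with a peak in Homo 2 and 32.4% of those in Het 3.

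**Figure D3:**
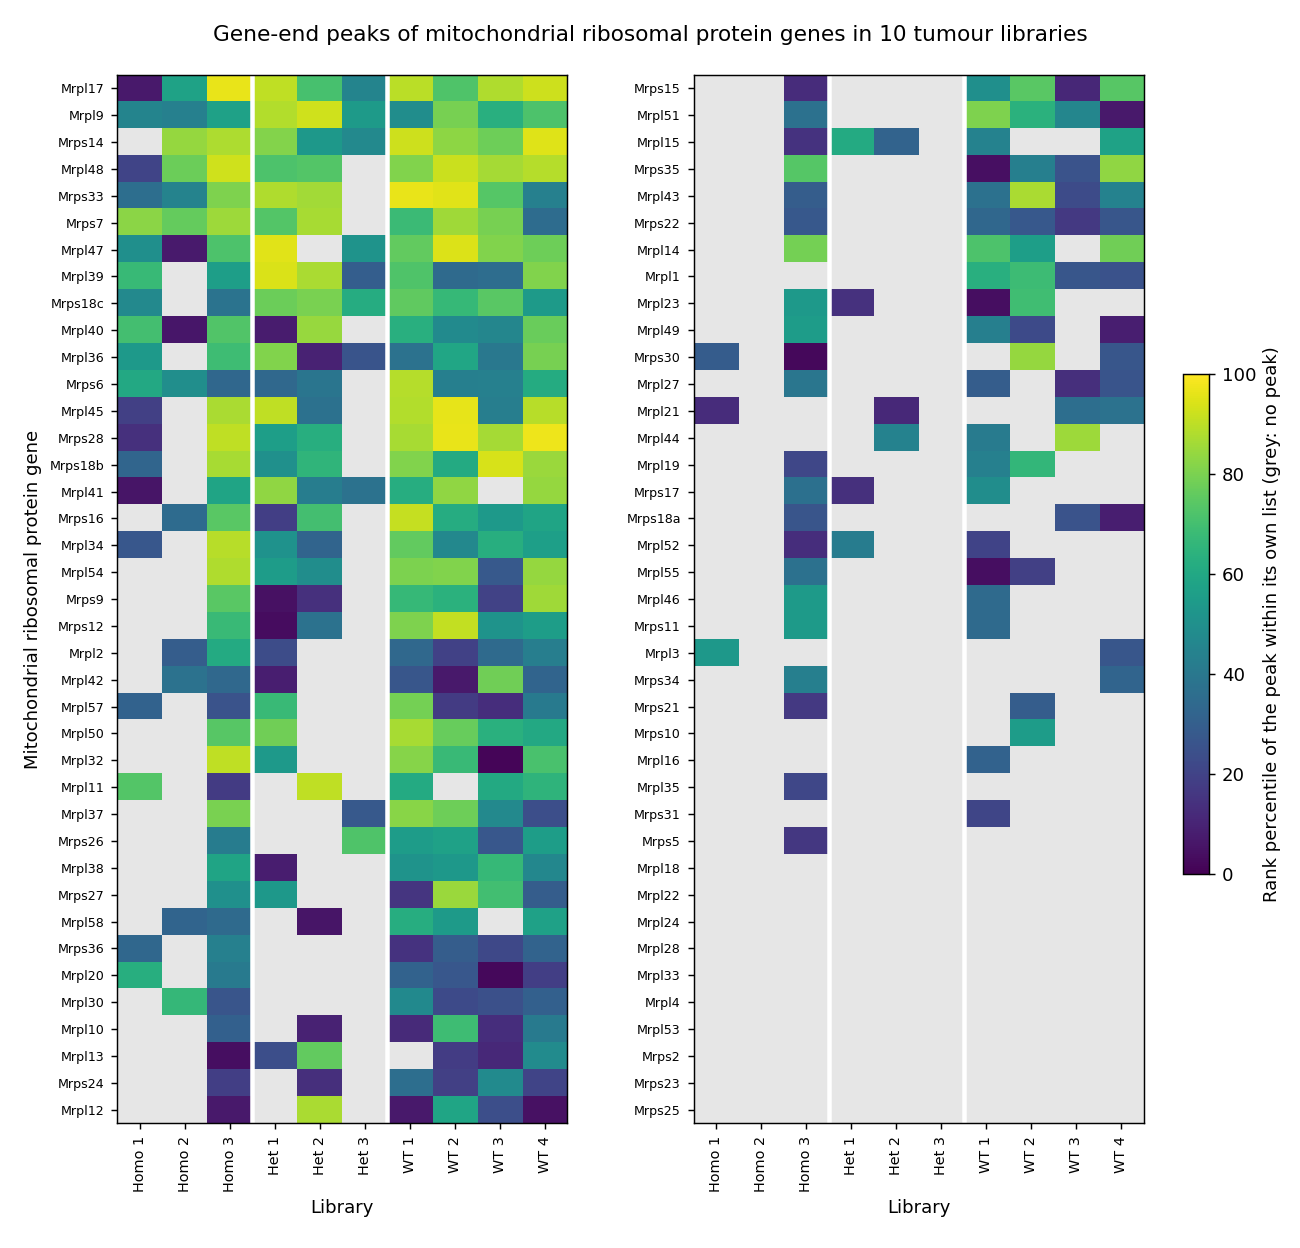
Rank percentile (colour scale) of each member's gene-end peak within its own list, with the 78 genes down the page in 2 panels by number of libraries with a peak, and the 10 libraries across, Homo, Het, WT. Grey means no peak called; Mrpl17 and Mrpl9 at the top left have no grey cell, and 10 genes at the lower right have only grey cells.

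Mrpl17 and Mrpl9, both large-subunit proteins, had a gene-end peak in every library. The Mrpl17 peaks (chr7:105810830-105811451 as the union over libraries) had rank percentiles of 6.8, 57.7 and 96.6 in Homo, 90.4, 70.9 and 45.3 in Het and 89.8, 72.7, 88.2 and 92.5 in WT tumours. The lowest was Homo 1 and the highest Homo 3, so the Homo range enclosed the others. The Mrpl9 peaks (chr3:94443162-94443635) had rank percentiles of 45.1, 43.7 and 57.1 in Homo, 88.5, 92.7 and 54.7 in Het and 49.2, 79.4, 63.0 and 72.1 in WT tumours. Mrpl9 ranked lower in the Homo lists than in most others, but Homo 3 lay above Het 3 and WT 1. Ranks come from lists of different length and show no change in accessibility. A further 10 members had a peak in 9 libraries, namely Mrps14, Mrpl48, Mrps33, Mrps7, Mrpl47, Mrpl39, Mrps18c, Mrpl40, Mrpl36 and Mrps6. The library that lacked it was Het 3 for 5 of them, Homo 2 for 3, Het 2 for 1 and Homo 1 for 1.

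The comparisons between genotypes were made on peak presence, gene by gene, with a two-sided Fisher's exact test adjusted by Benjamini-Hochberg over all 21631 genes. No gene passed an adjusted p of 0.05 in Homo against WT, Het against WT, Homo against Het, or Het and Homo together against WT (0% of genes in each). The smallest exact p these designs allow is 0.0286, 0.0286, 0.1 and 0.00476, and every adjusted p was 1. Before adjustment, 29, 476, 0 and 397 genes had p under 0.05, of which 1, 9, 0 and 6 were members. The comparisons with WT share the 4 WT libraries, so their values are given side by side and are not independent. The pattern described next, a peak in every library of one group and in none of the other, is a description with no test of its own.

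Het against WT gave the one comparison in which members showed this pattern in number. A peak in all 4 WT and in no Het library was found for 9 members, against 475 of all genes (2.2%). Of the 41 members with a peak in all 4 WT libraries, 9 (22.0%) had none in Het, against 475 of 5067 such genes (9.37%). Among those 41 members, Het 1 held 27 (65.9%), Het 2 held 22 (53.7%) and Het 3 held 9 (22.0%). Of the 5067 genes, the same libraries held 79.9%, 68.4% and 37.4%, a larger share in each. The opposite pattern, higher in Het than in WT, was shown by no member and by 0.00462% of genes.

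The 9 members were Mrpl1, Mrpl20, Mrpl30, Mrpl43, Mrpl51, Mrps15, Mrps22, Mrps35 and Mrps36. Of these, 5 carry Mrpl and 4 carry Mrps symbols, and Mrpl1 was the one also missing from every Homo library. Mrpl1 (gene at chr5:96209498-96266727) had a peak at chr5:96209901-96210271, across its annotated start. Its rank percentiles were 63.0, 68.4, 26.9 and 25.3 in the WT libraries, with folds over local background of 7.97, 7.78, 6.02 and 5.93 as the authors gave them. It was thus of middle strength in WT, and not called in any of the 6 libraries with Cre.

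Mrpl43 lies next to Twnk, which encodes the mitochondrial DNA helicase Twinkle, with starts 116 bp apart facing away from each other, and their shared peak was at chr19:45006201-45006722. It was called in Homo 3, at percentile 29.7, in no Het library, and in the WT libraries at 37.4, 87.2, 22.9 and 44.4. Mrpl51 shares its region (chr6:125191448-125192315) with Ncapd2, a condensin subunit gene that starts 614 bp away and faces the other way. The ranked summits lay at -459 bp from the Mrpl51 start in Homo 3. In WT 1 to 4 they lay at -461, -529, -450 and -621 bp. Each was nearer to the Ncapd2 start, so the missing Het peak cannot be assigned to Mrpl51. The percentile of the region was 37.2 in Homo 3, and 80.5, 64.0, 45.9 and 6.9 in the WT libraries. Mrpl30 faces Mitd1 across 66 bp at chr1:37890179-37890641, with percentiles of 66.7 in Homo 2 and 26.5 in Homo 3, and 47.6, 22.5, 24.3 and 30.6 in WT. Mrpl20 had its region inside the gene, at chr4:155803385-155803775, with 62.8 in Homo 1 and 41.0 in Homo 3, and 31.6, 27, 2.0 and 18.5 in WT. For Mrpl20 both Homo peaks thus ranked above every WT peak in their own lists.

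Of the small-subunit genes, Mrps15 (chr4:126046736-126047292) was called in Homo 3 at percentile 12.7 and in WT at 49.7, 74.3, 11 and 74.1. Mrps22 (chr9:98601431-98601826) was called in Homo 3 at 27.6 and in WT at 33.5, 27.4, 16.6 and 26.8. Its peaks were low in every list that held them. Mrps35 (chr6:147042603-147043045) was called in Homo 3 at 73.5 and in WT at 4.0, 43.3, 25.7 and 83.4. Mrps36, in the set by its symbol, encodes a protein known as a part of the 2-oxoglutarate dehydrogenase complex. Its region was at chr13:100744096-100744873. It was called at 33.6 in Homo 1 and 43.6 in Homo 3, and at 14.6, 29.7, 21.6 and 31.7 in WT.

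The median WT percentile of the 9 members was 34.5, against 55.4 for the 41 members open in all WT libraries. Mrps15 (61.9) and Mrpl51 (55.0) were not low. For all genes the values were 40.9 for the 475 and 62.9 for the 5067. The 5067 genes were split by WT rank into low, middle and high classes of 1688, 1690 and 1689 genes. In the low class 7 of 15 members (46.7%) had no Het peak, against 19.9% of genes. In the middle class these were 2 of 16 members (12.5%), against 6.86% of genes, and in the high class 0 of 10, against 1.36%. Every WT library also had a higher background than any Het library. Within Het the order ran the other way, since Het 3 was the deepest and held the fewest of the 41 members. With Het and WT libraries scaled to the depth of Het 2, 6 of the 9 kept the pattern (Mrpl1, Mrpl20, Mrpl30, Mrpl43, Mrps15 and Mrps22), or 17.6% of 34 members, against 7.63% of 4467 genes. With all libraries scaled to Homo 2 none of 21 members open in all WT libraries showed it, against 115 of 2806 such genes (4.10%), so the order of members and all genes turned round. Mrpl1 was then called in 3 of 4 WT libraries. The order also turned round with the stricter threshold of −log10 p of at least 10. There 3 of 21 members (14.3%) showed the pattern, against 17.5% of 3223 genes, and the 3 (Mrpl37, Mrpl38 and Mrps12) included none of the 9. Scaling can only remove peaks, so it tests the WT calls and leaves the missing Het calls as they are. What part depth has in the missing Het peaks beyond these values was not tested.

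In Homo against WT, 1 member (Mrpl1) was open in all WT and no Homo library, as were 28 of all genes (0.129%). The reverse was shown by no member and by 1 gene (0.00462%). That count rests on Homo 3, which held 40 of the 41 members open in all WT libraries (97.6%, against 98.7% of genes). Homo 1 held 18 of them (43.9%, against 52.1% of genes) and Homo 2 held 13 (31.7%, against 24.0%). Without Homo 3, 18 of the 41 members (43.9%) were open in all WT and in neither remaining Homo library, as were 2091 of the 5067 genes (41.3%). Of the 41, 17 had a peak in a single Homo library, and that library was Homo 3 for all 17.

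With Het and Homo pooled against WT, Mrpl1 was again the 1 member lower, among 14 genes (0.0647%), and no member or gene was higher (0%). Without Homo 3, 6 of 41 members (14.6%) showed the pattern, against 328 of 5067 genes (6.47%). In Homo against Het, no member was called in every library of one group and in none of the other. Over all genes 0.0139% were lower and 0.139% higher in Homo than in Het by that pattern. Without Homo 2, 3 of 21 members open in the remaining Homo libraries (14.3%) had no Het peak, against 294 of 3199 genes (9.19%). Without Homo 1 it was 1 of 14 members (7.14%), against 92 of 1403 genes (6.56%).

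The summits of the members' peaks lay at promoters. For 60 members with a peak and an annotated start, 339 summits were measured. Their median position was 38 bp before the start (-38 bp, quartiles -120 and 39 bp), with 82.0% within 250 bp of it. The median summit lay over 1000 bp from that start for Mrpl2, Mrpl36 and Mrpl58. Mrpl36 had its annotated start 2506 bp inside the gene, with no peak there in any library, while the outer end, which it shares with the complex I gene Ndufs6, had a peak in 9.

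**Figure D4:**
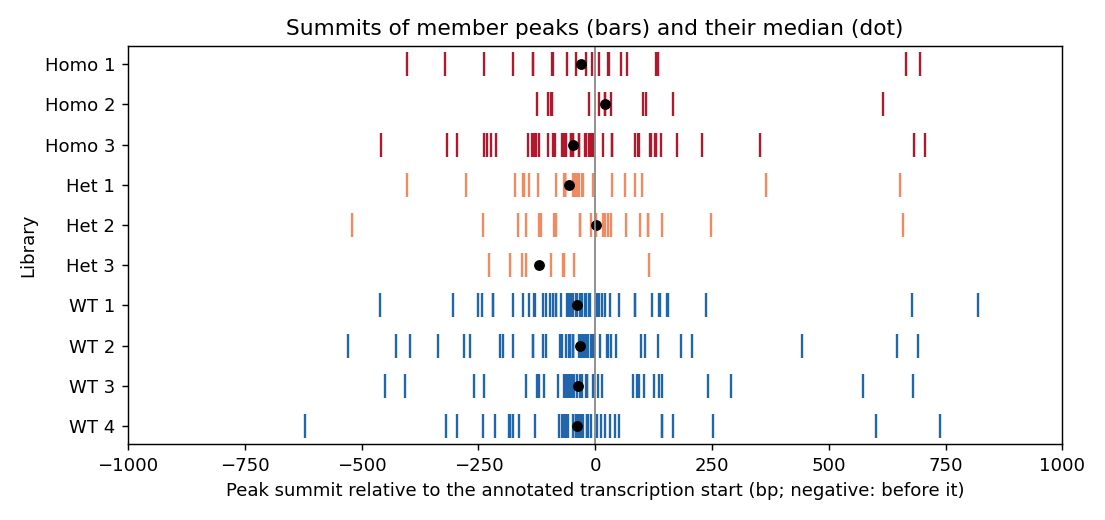
Peak summits of the members (bars, 1 per member) by library, Homo above Het above WT, with distance to the annotated transcription start on the horizontal axis in bp and the library median as a black dot. Summits cluster within 250 bp of the start in each group; those beyond 1000 bp are not drawn but count in the medians.

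No gene-end peak was called for 10 members: Mrpl4, Mrpl18, Mrpl22, Mrpl24, Mrpl28, Mrpl33, Mrpl53, Mrps2, Mrps23 and Mrps25. For 5 of these the gene table reached over 1000 bp beyond the start in the promoter table, and a peak was present at that start. Mrps23, whose start lay 10282 bp inside the gene, had one in 2 Homo, 3 Het and 3 WT libraries. Mrpl18 had one in 2 Homo, 2 Het and 4 WT libraries, Mrpl22 in 1, 1 and 2, Mrpl24 in 2, 0 and 2, and Mrps2 in 1, 0 and 0. Counting peaks at either a gene end or a start, 73 members (93.6%) were open in at least 1 library, against 45.5% of all genes. Mrpl4 is not in the promoter table and had a peak inside the gene in 5 libraries. Mrpl28, Mrpl33, Mrpl53 and Mrps25 had no peak at either place in any of the 10.

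Many members share their promoter with another gene. Of the 68 members with a peak, 34 (50%) shared a peak region with the end of another protein-coding gene, against 31.2% of all genes with a peak. A gene facing the other way started within 1000 bp for 24 of 69 members with a promoter entry (34.8%, median distance 136 bp), against 17.9% of genes with a peak and 8.59% of all genes. Several partners also serve mitochondria. Mrpl47 faces Ndufb5, a complex I subunit gene, 308 bp away, with a peak in 9 libraries. Mrps12 faces Sars2, for mitochondrial seryl-tRNA synthetase, 147 bp away, with a peak in 7. Mrpl46 and Mrps11, from different subunits, start 42 bp apart and share a single region, called in Homo 3 and WT 1. Other partners have cytosolic roles, such as Psma2 (proteasome) beside Mrpl32, and Fau (a cytosolic ribosomal protein) beside Mrpl49. Members with such a partner had a peak in a median of 6 libraries, and those without in 5. At these promoters a peak cannot be assigned to one gene of the pair.

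Motif matches were counted in the 300 bases of each promoter entry, 250 before and 50 after the start, for 69 members, 17274 genes and the 7548 of these with a gene-end peak. The ETS letters were present in 37.7% of members, 22.6% of genes with a peak and 13.1% of all genes. YY1 letters were in 18.8%, 9.02% and 7.24% of the same sets, and NRF1 letters in 10.1%, 5.07% and 2.63%. The E-box, to which MYC binds, was in 7.25% of members, 12.3% of genes with a peak and 9.02% of all genes. The letters GGGCGG, bound by SP and KLF factors, were in 49.3%, 72.4% and 49.8%. CCAAT was in 39.1%, 44.2% and 42.7%, and TATAAA in 7.25%, 7.68% and 14.9%. Promoters of the members and of genes with a peak were alike in CpG content (median observed over expected 0.820 and 0.826), and all genes lay lower at 0.617. The 7 members with NRF1 letters were Mrpl9, Mrpl10, Mrpl17, Mrpl22, Mrpl32, Mrpl39 and Mrps18b. They had a median of 8 libraries, from 0 for Mrpl22 to 10 for Mrpl9 and Mrpl17, against 5 for members without these letters. Medians with and without the other letters were 7 and 5 for the E-box, 5 and 6 for ETS and 6 and 5 for YY1. They were 6 and 4 for GGGCGG, 6 and 5 for CCAAT and 3 and 6 for TATAAA. None of these medians was tested.

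**Figure D5:**
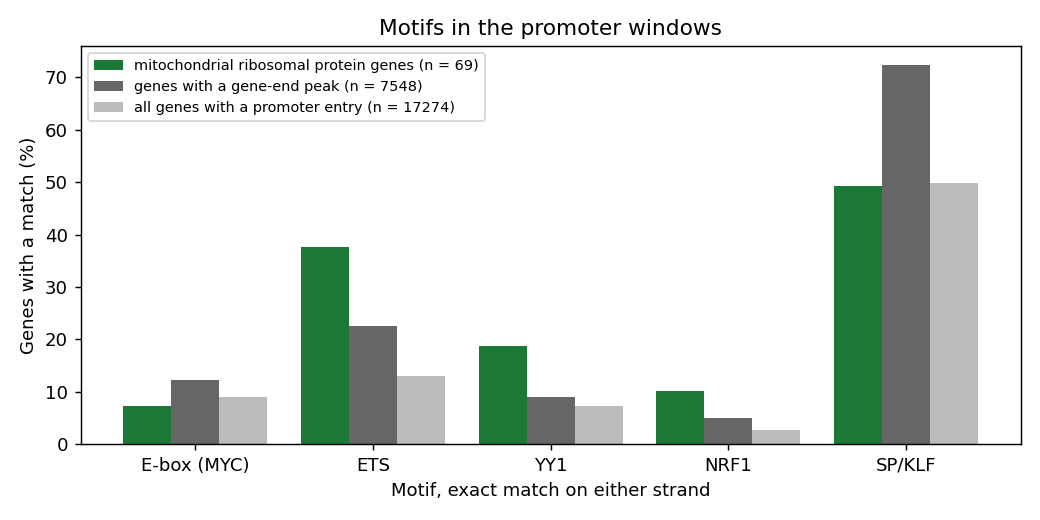
Percent of genes (vertical axis) with an exact match on either strand to each of 5 motifs (horizontal axis), for the 69 members with a promoter entry (green), 7548 genes with a gene-end peak (dark grey) and 17274 genes (light grey). The ETS, YY1 and NRF1 bars are tallest for the members, and the E-box and SP/KLF bars are tallest for genes with a peak.

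Other genes of mitochondrial translation and of the related machineries were counted the same way. Of 44 further genes for mitochondrial ribosome proteins under other symbols, translation and assembly factors and mitochondrial transcription, 39 had a peak in at least 1 library. Their mean share was 42.4% ± 30.9 in Homo, 32.6% ± 18.2 in Het and 59.7% ± 10.4 in WT tumours. Of 18 of them open in all WT libraries, 1 (5.56%) had no Het peak. It was Mrrf, the mitochondrial ribosome recycling factor. Tfb2m, which helps the mitochondrial RNA polymerase to open its promoters, had a peak in all 10 libraries.

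Oxidative phosphorylation subunits, whose assembly needs the products of the mitochondrial ribosome, had a peak in at least 1 library for 71 of 85 genes. Their mean share was 37.6% ± 35.6 in Homo, 36.1% ± 13.5 in Het and 63.8% ± 9.62 in WT tumours, and 1 of 38 open in all WT libraries (2.63%), Cox6a1, had no Het peak. For cytosolic ribosomal proteins, which MYC is known to induce, these values were 75 of 84 genes, 47.6% ± 35.7 in Homo, 42.1% ± 14.8 in Het and 78.9% ± 8.27 in WT tumours, with 9 of 53 (17.0%) without a Het peak. Of the genes open in all WT libraries, the share with no Het peak was thus 22.0% for the members, 17.0% for cytosolic ribosomal proteins and 9.37% for all genes. It was 2.63% for oxidative phosphorylation subunits and 5.56% for the 44 other genes of mitochondrial translation and transcription, in which translation factors alone gave 1 of 6 (16.7%). No list was tested against another.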

How the data were processed

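Frozen liver tumours gave 10 ATAC-seq libraries (3 Homo, 3 Het, 4 WT, grouped by title). Bowtie2, MACS2, deepTools and mm10 are named, per the submitters' processing notes; versions, settings, read numbers and read shift were not given in the sources used here. The authors deposited 1 peak list per library, called per library. Each row has the authors' score, the authors' fold (a ratio of summit pileup to local background) and the deposited −log10 p and −log10 q; these are the peak's own values and were used to rank or filter within a list.

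Overlapping rows were merged, autosomes and X kept, and regions placed against the RefSeq gene table (assembly GRCm38.p6, which shares its chromosome coordinates with mm10) with an overlap of at least 1 bp within 1000 bp of either gene end. Depth was recovered as the background that, with a whole-number pileup, gives both deposited values within 0.001 in −log10 p. For equal depth, pileups were scaled to the depth of Homo 2 (0.464) and kept at −log10 p of at least 5. For equal number, the 1748 strongest regions of each list were kept. Presence was tested with Fisher's exact test (scipy 1.17.1, two-sided, Benjamini-Hochberg over 21631 genes). The code for the recovery and the pattern counts was tried on simulated data, which checks the code only. Genes were named by rule: Arid1a, members of each all-or-none pattern, members in all 10 libraries and members in none; others were named after their values were seen. The members, gene lists and tests were chosen with earlier results of these data known. Alternatives were other windows (500 and 2500 bp), the transcription start only, a stricter threshold (−log10 p of 10), equal depth, equal number, each library left out and a replicate block. Equal depth of Het and WT (0.655), and gene end or start, were added after seeing the data.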

Additional observations from a re-analysis of the deposited data

Results flagged for a closer look

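One group of libraries met the criterion for a sample far from the others. Among the 4 WT libraries, 20, 20, 18 and 20 small-subunit genes had a gene-end peak (replicates 1 to 4), so the gap between WT 3 and the nearest other library was 1 times the whole range, above Dixon's critical value for 4 samples. The other 3 libraries were tied, so the gap is 2 genes. With such ties the ratio is 1 whatever the size of the gap. The usual chance rate of about 1 in 20 groups therefore does not apply here. WT 3 also had the shortest WT list, with 6731 regions; whether list length accounts for the gap was not tested.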

How the results depend on the processing

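Of the alternatives tried on the main results, 234 stayed within the spread or within 1.5 times, and 30 moved. The mean number of members with a peak in Het was 11 with equal numbers of regions. In WT it was 47.8 with the transcription start only, 43.5 with the stricter threshold, 11.5 with equal numbers and 38.8 at equal depth. The value of 47.8 rests on the 69 members in the promoter table, since members without an annotated start counted as having no peak. Mrpl38, Mrpl54, Mrps28 and Mrps35, each called in 4 WT libraries by gene end, were lost in this way. The value is therefore not comparable with the main mean over 78 members, and shows no dependence on where the peaks lie. Leaving out 1 library gave means of 18.5 to 42 in Homo, 19.5 to 31 in Het and 51 to 54.7 in WT. The count of members open in all WT and no Homo library, and that for Het and Homo together, was 0 with a 500 bp window, with the stricter threshold, with equal numbers and at equal depth. Leaving out 1 library gave 1 to 18 and 1 to 6, the highest without Homo 3. The Het against WT count was 3 with the stricter threshold (14.3% of members open in all WT libraries, against 17.5% of genes, none of them among the 9), 1 with equal numbers (1 of 2, against 11.3%) and 0 at equal depth (against 4.10%). With 1 library left out it was 9 to 16, the highest without Het 1 (39.02%, against 24.3% of genes). Homo against Het gave 1 member lower with equal numbers, and 0 to 3 higher with 1 library left out. Members in every library numbered 0 with the stricter threshold, 0 with equal numbers, 1 at equal depth and 2 to 7 with 1 left out, 5 without Homo 2 and 7 without Het 3. Members in no library numbered 5 with a 2500 bp window, 40 with equal numbers, 5 when starts were added and 10 to 12 with 1 left out.

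The difference in the percent of libraries with a peak, Homo minus WT, turned positive for Mrpl20 (16.7 with the stricter threshold, 33.3 with equal numbers, 41.7 percentage points at equal depth), for Mrpl30 (33.3 with equal numbers) and for Mrps36 (16.7 at equal depth). The cause was not tested.

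With the replicate number as a block (3 pairs, smallest sign-test p 0.25), 0 genes passed in each of the 3 comparisons. Deviations of same-numbered libraries correlated at -0.25 to -0.03 (Homo and WT), 0.03 to 0.06 (Het and WT) and -0.35 to -0.08 (Homo and Het), so the numbers were not taken as pairs.

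Read depth was derived from the lists and not checked against read totals. A missing peak means only that none was called at that depth. Presence in 3 or 4 libraries cannot pass an adjusted test for a single gene.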
